A study of Mus musculus with 26 samples.

Results

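The genes Daglb and Cnr2 of the endocannabinoid system were followed across 7 groups of cultured mouse bone marrow macrophages. Daglb encodes diacylglycerol lipase beta and appears in the deposited files under its older name E330036I19Rik, which RefSeq lists as a synonym. The genes were selected on their listing by DiffScore, a signed score of difference between groups, in the authors' deposited tables of 5 comparisons, so those differences are given below as descriptions, without a test. They are represented by 3 probes, of 7244 probes (5787 gene names) that these tables name and 25697 probes on the arrays. Daglb has probes ILMN_2976448 and ILMN_2714548, and Cnr2 has probe ILMN_2794526.

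The 26 Illumina bead arrays came from male CD1 mice aged 2 months, either wild type (WT) or with the Cox2 gene knocked out in the whole animal (KO). Macrophages were first expanded with M-CSF at 100 ng/ml. In the day 1 experiment (10 arrays), WT cells received M-CSF alone (n = 4), and WT cells (n = 3) and KO cells (n = 3) received M-CSF and RANKL at 30 ng/ml each. In the day 3 experiment (16 arrays, 4 per group), all cells received M-CSF and RANKL. Its groups were WT cells, WT cells treated with NS398 (0.1 µM), which inhibits COX2, KO cells, and KO cells treated with prostaglandin E2 (PGE2, 1 µM). M-CSF is the growth factor of macrophages, and RANKL drives them to become osteoclasts, the cells that resorb bone. The replicates are called biological, with no word on whether each came from its own mouse, so the tests measure the spread between these samples. Some day 3 replicate numbers carry an r that the labels do not explain: 12r (KO), 16r (NS398) and 21r, 23r and 24r (PGE2). No untreated WT array carries it, so the day 3 groups are uneven in this label. The array medians were near 228 in all day 1 arrays and near 150.5 in all day 3 arrays, so levels at day 1 and day 3, which may have been normalised apart, are listed together and not tested against each other. No named probe measures Ptgs2, the gene that encodes COX2, so the genotype labels were not checked here.

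Diacylglycerol lipases release the endocannabinoid 2-arachidonoylglycerol (2-AG) from diacylglycerol, and the beta form is the main one in macrophages. 2-AG activates CB2, the receptor encoded by Cnr2, which couples to inhibitory G proteins and is found mainly on immune cells. In mice, loss of Cnr2 is known to lower bone mass. Hydrolysis of 2-AG gives arachidonate, the substrate from which COX enzymes start prostaglandin synthesis, and COX2 can also oxygenate 2-AG itself. PGE2 acts on macrophages largely through the receptors EP2 and EP4, which raise cyclic AMP.

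The promoter windows of both genes are shown because the genes varied in the same direction in every listed comparison and because motifs of factors linked to cyclic AMP, RANKL and macrophage identity can be read in them. Each window is from RefSeq (GRCm38.p6, plus strand) and runs from 250 bases before to 50 bases after an annotated start. The Daglb window is chr5:143464243-143464542, and the Cnr2 windows are chr4:135894939-135895238 (first start) and chr4:135911430-135911729 (second start). Capitals mark motif matches.
Daglb: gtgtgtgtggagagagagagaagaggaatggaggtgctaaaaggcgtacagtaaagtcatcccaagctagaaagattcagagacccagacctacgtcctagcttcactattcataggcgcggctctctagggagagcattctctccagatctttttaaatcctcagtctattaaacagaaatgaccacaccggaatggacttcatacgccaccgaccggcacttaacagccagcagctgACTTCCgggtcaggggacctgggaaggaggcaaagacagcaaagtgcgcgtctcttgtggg
Cnr2 first start: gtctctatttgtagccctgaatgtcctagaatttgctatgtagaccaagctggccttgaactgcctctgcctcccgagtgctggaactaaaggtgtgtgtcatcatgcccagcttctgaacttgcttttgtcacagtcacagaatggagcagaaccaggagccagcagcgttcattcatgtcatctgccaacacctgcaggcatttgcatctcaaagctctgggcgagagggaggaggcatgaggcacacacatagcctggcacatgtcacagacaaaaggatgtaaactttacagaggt
Cnr2 second start: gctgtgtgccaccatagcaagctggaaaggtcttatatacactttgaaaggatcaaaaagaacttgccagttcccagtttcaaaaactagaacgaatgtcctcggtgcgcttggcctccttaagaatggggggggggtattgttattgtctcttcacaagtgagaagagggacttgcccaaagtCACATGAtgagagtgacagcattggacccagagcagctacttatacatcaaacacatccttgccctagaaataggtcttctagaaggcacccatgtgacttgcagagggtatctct
The motifs searched, on both strands, were the cyclic AMP response element half-site TGACG, the AP-1 site TGANTCA, the ETS site GGAAGT that PU.1 can bind, the MITF site TCANGTG and the NF-kappaB site. They occur in 20.8%, 7.8%, 23.8%, 14.3% and 4.5% of 32851 RefSeq promoter windows of the same length. The Daglb window holds 1 ETS match on the minus strand at position -11. The window of the second Cnr2 start holds 1 MITF match on the minus strand at position -66. None of the 5 motifs was found in the window of the first Cnr2 start. The half-site, the AP-1 site and the NF-kappaB site were found in none of the 3 windows. The Daglb window holds 11 CG dinucleotides, and each Cnr2 window holds 3, against a median of 7 over all windows. These are matches of letters and were not tested as binding sites.

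At day 1, Daglb was bright with M-CSF alone and in KO cells given RANKL, and low in WT cells given RANKL. Its brighter probe, ILMN_2976448, had normalised intensities of 28444, 30462, 32083 and 32227 in WT cells with M-CSF alone. It read 2378, 2387 and 2446 in WT cells with RANKL. In KO cells with RANKL it read 21675, 23912 and 24211. The 3 groups did not overlap, and the KO arrays lay close to the arrays without RANKL. This probe was brighter than 99.3% of the probes on the array with M-CSF alone and than 88.2% in WT cells with RANKL. The mean of 2404 ± 36.9 (SD, n = 3) with RANKL was 12.8-fold below that of 30804 ± 1765 (n = 4) with M-CSF alone, a log2 difference of -3.68 ± 0.08 (SE). KO cells with RANKL (23266 ± 1386, n = 3) stood 9.68-fold above WT cells with RANKL, a log2 difference of 3.27 ± 0.09. By the size of the log2 difference the probe ranked 7 and 10 of 17211 probes in these comparisons.

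Cnr2 had the same order of groups at day 1, at lower intensity. Its arrays read 2684, 2845, 2934 and 3191 in WT cells with M-CSF alone. They read 705, 710 and 837 in WT cells with RANKL. They read 2654, 2698 and 2805 in KO cells with RANKL. The WT arrays with RANKL lay below all others, and the KO arrays overlapped those with M-CSF alone. WT cells with RANKL (751 ± 74.9) were 3.88-fold below WT cells with M-CSF alone (2914 ± 212), a log2 difference of -1.96 ± 0.09. KO cells with RANKL (2719 ± 77.8) were 3.62-fold above WT cells with RANKL, a log2 difference of 1.86 ± 0.10. These arrays measure RNA from whole cultures, so fewer cells of a type and less of an RNA per cell cannot be told apart.

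As background, 37.7% of all probes kept and 75.8% of named probes were called (limma adjusted p under 0.05) for RANKL against M-CSF alone, and 33.8% and 70.3% for KO against WT. Names exist only for probes the authors' tables list, which raises the shares among named probes. The authors' deposited table for RANKL against M-CSF alone lists 5301 probes. In it the brighter Daglb probe and Cnr2 both had a DiffScore of -357 for WT cells with RANKL, relative to M-CSF alone. Listed scores of that group ran in size from 13.0 to 359, so both lay near the largest. Equal scores near that end do not rank these differences. In the authors' deposited table of KO and WT cells at day 1 (4988 probes listed), KO cells are the reference. Both scores there were -356 for WT cells, which were thus the lower ones, and the largest size was 358. The dimmer Daglb probe, ILMN_2714548, was listed with a score of -77.4 in the first table and is absent from the other 4.

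At day 3, both genes were higher with COX2 absent or inhibited, and low again where KO cells received PGE2. The brighter Daglb probe read 2477, 2679, 2736 and 2893 in WT cells and 4222, 4828, 5642 and 5872 in WT cells with NS398. It read 5103, 5547, 5836 and 5978 in KO cells, and 1650, 1769, 1955 and 1963 in KO cells with PGE2. The NS398 and KO arrays overlapped each other and lay above all WT arrays, and the PGE2 arrays lay below all WT arrays. KO cells (5616 ± 386, n = 4) were 2.08-fold above WT cells (2696 ± 172), a log2 difference of 1.06 ± 0.10. NS398 (5141 ± 759) was 1.91-fold above WT, a log2 difference of 0.92 ± 0.10. KO cells with PGE2 (1834 ± 152) were 3.06-fold below KO cells, a log2 difference of -1.62 ± 0.10.

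Cnr2 showed larger log2 differences than Daglb in the 3 listed comparisons at day 3. Its arrays read 163, 185, 201 and 212 in WT cells and 575, 583, 722 and 854 in WT cells with NS398. They read 546, 750, 774 and 812 in KO cells, and 158, 181, 190 and 190 in KO cells with PGE2. The NS398 and KO arrays overlapped, the WT and PGE2 arrays overlapped, and every array of the first pair lay above every array of the second. KO cells (720 ± 119) were 3.79-fold above WT cells (190 ± 21.4), a log2 difference of 1.91 ± 0.14. NS398 (683 ± 132) was 3.6-fold above WT, a log2 difference of 1.83 ± 0.14. KO cells with PGE2 (180 ± 15.1) were 4.01-fold below KO cells, a log2 difference of -1.99 ± 0.14. By size these ranked 6, 8 and 19 of 18961 probes, where Daglb ranked 68, 116 and 51. The low groups lay near the array medians, about where 65.7% (WT) and 64.0% (PGE2) of probes were dimmer.

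As background, 6.37% of all and 16.2% of named probes were called for KO against WT, 5.94% and 15.1% for NS398, and 13.5% and 33.0% for PGE2. In the authors' deposited table of KO and WT cells at day 3 (1147 probes listed), the DiffScores of WT cells, relative to KO cells, were -159 for Daglb and -147 for Cnr2. In the authors' deposited table for NS398 (924 probes) those of untreated WT cells, relative to NS398, were -66.0 and -101. In the authors' deposited table for PGE2 (2459 probes) those of KO cells with PGE2, relative to KO cells, were -303 and -158. The comparisons share arrays: the WT arrays with RANKL at day 1 enter both day 1 comparisons, and the WT and KO arrays at day 3 each enter 2 of 3.

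**Figure D1:**
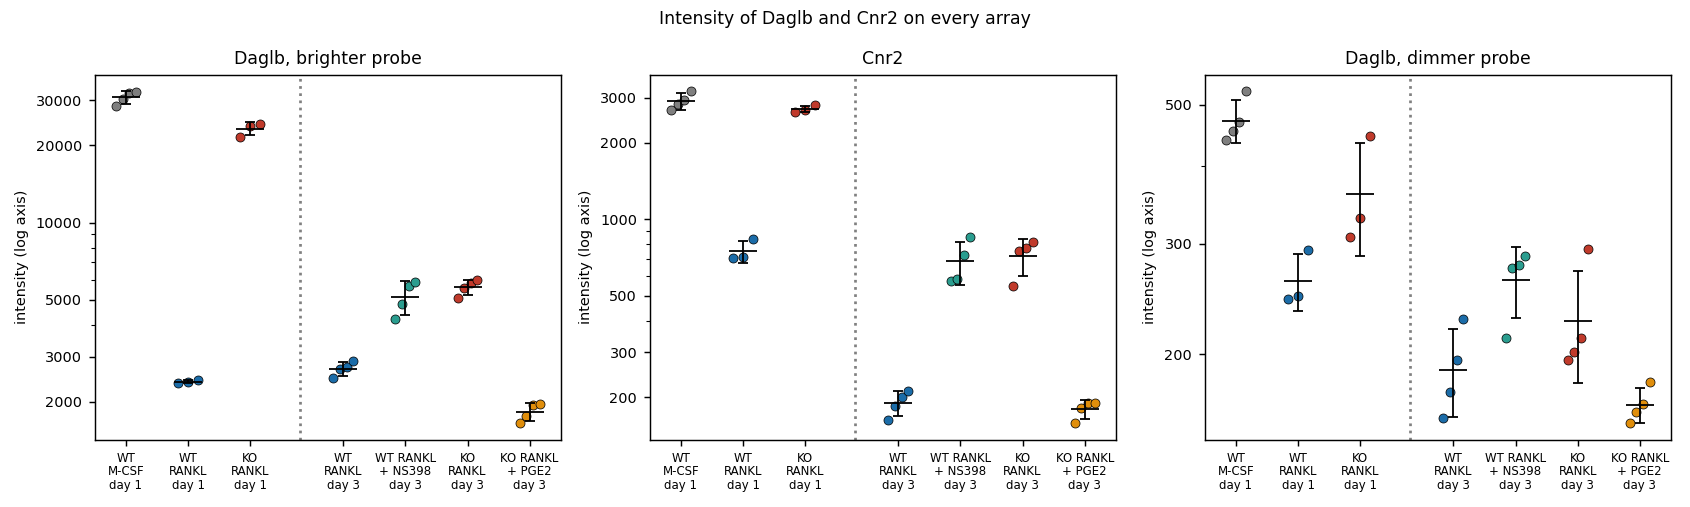
Normalised intensity (log axis) of the 3 Daglb and Cnr2 probes on each of the 26 arrays, by group, with the mean and SD. Day 1 and day 3 are separated by a dotted line because their array medians differ. WT cells with RANKL at day 1 sit at 2378 to 2446 for the brighter Daglb probe and at 705 to 837 for Cnr2, below the other day 1 groups.

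The 3 further comparisons below, none of which has a list of differing probes among the authors' tables used here, were tested with limma across all probes. They ask how close KO cells given RANKL were to cells without RANKL, how close KO cells given PGE2 were to WT cells, and how close genetic loss of COX2 was to its inhibition. They use the same arrays as the listed comparisons, through which the brighter Daglb probe and Cnr2 were chosen. The limma p-values of the further comparisons are therefore not independent of that choice. The authors' deposited table for RANKL against M-CSF alone also gives scores for KO cells relative to M-CSF alone, -49.5 for Daglb and -0.572 for Cnr2. At day 1, Daglb was lower in KO cells with RANKL than in WT cells with M-CSF alone, at 0.755 of its level, with no overlap (log2 difference -0.40 ± 0.08, 95% interval -0.58 to -0.23, adjusted p 0.0017). Cnr2 did not pass the threshold there (log2 difference -0.10 ± 0.09, interval -0.29 to 0.09, adjusted p 0.573). In that comparison 15.7% of all probes and 31.8% of named probes were called.

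In KO cells with PGE2 at day 3, Daglb was at 0.680 of its level in WT cells, with no overlap (log2 difference -0.56 ± 0.10, adjusted p 0.00834). With a variance trend and robust moderation the adjusted p was 0.0663, above the threshold. Cnr2 did not pass (log2 difference -0.08 ± 0.14, interval -0.38 to 0.22, adjusted p 0.9). Here 1.20% of all and 3.10% of named probes were called. Between KO cells and WT cells with NS398, 0.738% of all and 1.91% of named probes were called, and neither gene was. The log2 difference was 0.14 ± 0.10 for Daglb (interval -0.07 to 0.35, adjusted p 0.804) and 0.08 ± 0.14 for Cnr2 (interval -0.22 to 0.38, adjusted p 0.935).

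**Figure D2:**
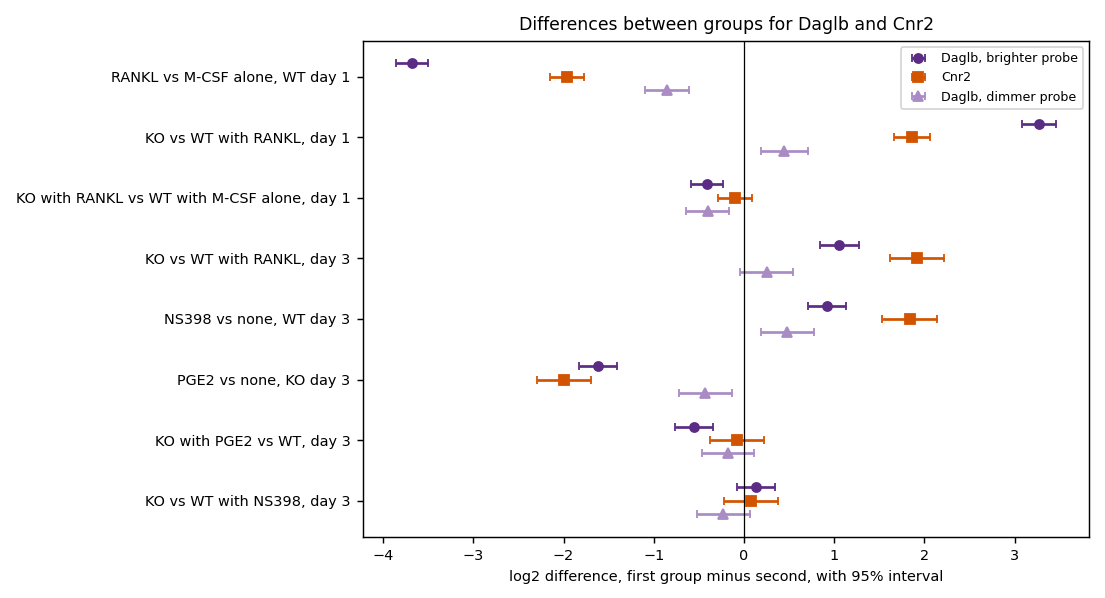
Log2 differences of the 3 probes in all 8 comparisons between groups, first group minus second, with 95% intervals. The brighter Daglb probe runs from -3.68 for RANKL against M-CSF alone to 3.27 for KO against WT at day 1, and Cnr2 from -1.99 to 1.91.

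The second Daglb probe, ILMN_2714548, was dim and differed less between groups. At day 1 it read 439, 454, 469 and 526 with M-CSF alone, 245, 247 and 294 in WT cells with RANKL, and 308, 329 and 446 in KO cells with RANKL. The order of the group means was that of the brighter probe, and the KO arrays overlapped those with M-CSF alone. Its log2 difference was -0.85 ± 0.12 for RANKL against M-CSF alone. It rose in KO against WT cells with RANKL (0.45 ± 0.12, adjusted p 0.00719) and was lower in KO cells than with M-CSF alone (-0.40 ± 0.12, adjusted p 0.0195). The probe was chosen through its listing for RANKL against M-CSF alone. The arrays of that comparison are the reference in both tests, which favours these directions, so the limma p-values are not independent of the choice. Both calls rest on few arrays: the first had a log2 difference of 0.29 and an adjusted p of 0.0707 without KO replicate 20. The second was lost without KO replicate 19, KO replicate 21 or M-CSF replicate 5 (adjusted p 0.141, 0.101 and 0.0665).

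At day 3 this probe, for which no day 3 detection p-value is listed, read 158 to 228 in WT cells, 212 to 287 with NS398, 196 to 294 in KO cells and 155 to 180 with PGE2. No day 3 comparison of this probe passed the threshold. The log2 differences were 0.25 ± 0.14 for KO against WT (adjusted p 0.37), 0.48 ± 0.14 for NS398 (adjusted p 0.051) and -0.43 ± 0.14 for PGE2 (adjusted p 0.0509), where the groups did not overlap. Those for NS398 and PGE2 lay at the threshold and were called under other settings. They were -0.18 for KO with PGE2 against WT and -0.23 for KO against NS398 (adjusted p 0.732 and 0.723). The directions in the first 3 of these were those of the brighter probe, and the levels of the 2 probes are not set against each other.

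Pathway genes here are those of the endocannabinoid system and of inhibitory G protein signalling, diacylglycerol and arachidonate routes and other lipid receptors. Apart from Daglb and Cnr2, 53 of them had a tested probe at day 1. Of these, 46 were called for RANKL against M-CSF alone (20 higher, 26 lower) and 43 for KO against WT (24 higher, 19 lower). At day 3, 14 of 52 were called for KO against WT (7 higher, 7 lower), 13 for NS398 (9 higher, 4 lower) and 14 for PGE2 (4 higher, 10 lower). Beside them stand the shares called among all named probes, 75.8% and 70.3% at day 1 and 16.2%, 15.1% and 33.0% at day 3. The median log2 difference of the pathway genes ran from -0.18 (RANKL) to 0.18 (KO, day 1), where all named probes had medians of -0.10 and 0.09. Between KO cells with RANKL and cells on M-CSF alone 23 of 53 were called, beside 31.8% of named probes. At day 3, 4 of 52 were called when KO cells with PGE2 were compared to WT cells, and 3 of 52 when KO cells were compared to NS398. Beside these stand 3.10% and 1.91% of named probes. A value after one of these genes is its log2 difference unless it is named otherwise, taken from its brightest probe, and a gene is called at an adjusted p under 0.05. Their probes are named only because the authors listed them in some comparison, and values are given for the genes with the smallest p. The p-values of these genes are therefore descriptions and not independent tests. Genes with no named probe, among them Dagla, Faah, Abhd6, Cnr1, Gpr55 and Ptger4, were not analysed here.

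**Figure D3:**
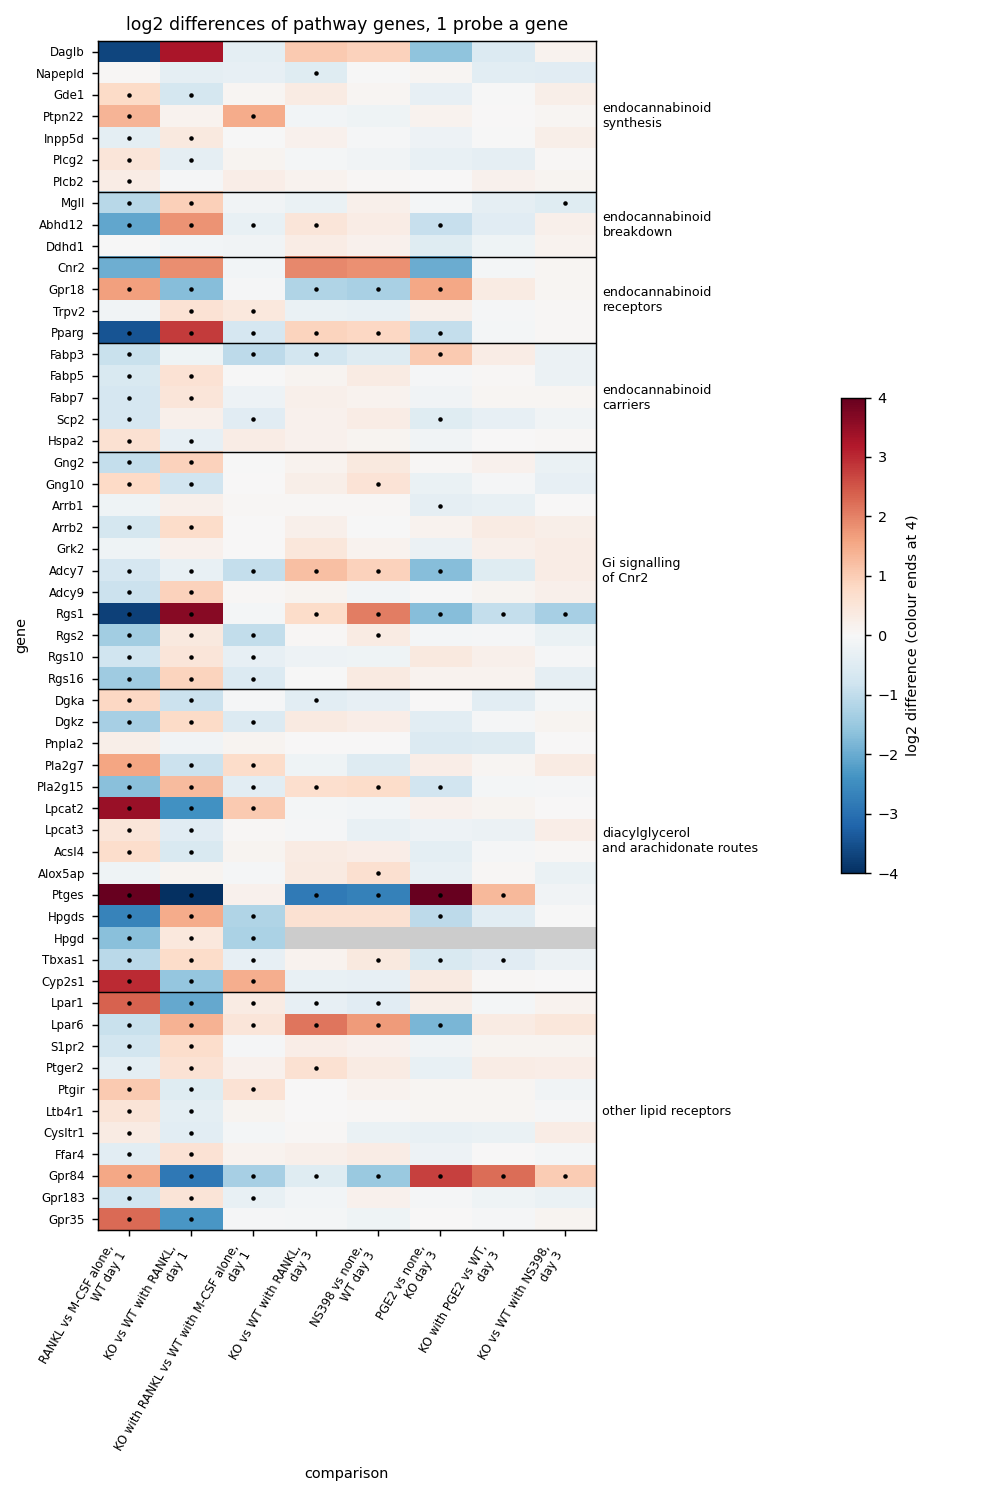
Log2 difference (colour, ending at 4 in each direction) of Daglb, Cnr2 and the other pathway genes in all 8 comparisons. Dots mark genes called with adjusted p under 0.05, which is not marked for the 2 chosen genes, and grey marks a gene not tested. For RANKL at day 1, 46 of 53 other genes are called, beside 75.8% of named probes. For KO at day 3, 14 of 52 are called, beside 16.2%.

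Of 6 other synthesis genes tested at day 1, 4 rose and 1 fell with RANKL, and 1 rose and 2 fell in KO against WT cells, beside 75.8% and 70.3% called among named probes. Gde1, a glycerophosphodiesterase that can release anandamide, rose with RANKL (log2 difference 0.78) and was lower in KO cells (-0.69). Its 3 probes were all called in both comparisons and ran from 0.78 to 1.36 and from -2.47 to -0.69. Inpp5d, a lipid phosphatase of blood cells, moved the other way, at -0.40 and 0.38. Ptpn22, a phosphatase of immune signalling that has been linked to anandamide synthesis, rose with RANKL (1.35) and did not pass for KO against WT (0.13). Napepld, which releases anandamide from its phospholipid precursor, was the only synthesis gene called at day 3, falling by 0.48 on the log2 scale in KO against WT (adjusted p 0.0155).

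The breakdown genes included both 2-AG hydrolases with a named probe. Abhd12 had mean intensities of 5346 ± 381 with M-CSF alone, 1263 ± 183 in WT cells with RANKL and 4341 ± 198 in KO cells with RANKL. It fell with RANKL (log2 difference -2.09, adjusted p 4.26e-13) and was higher in KO than in WT cells (1.79, adjusted p 2.74e-11), the directions of Daglb. At day 3 its means were 863 ± 91.0 in WT cells, 1059 ± 123 with NS398, 1207 ± 95 in KO cells and 640 ± 126 with PGE2. It rose in KO against WT (0.49, adjusted p 0.0335) and fell with PGE2 (-0.93, adjusted p 0.000165), while NS398 did not pass (0.29, adjusted p 0.263). Mgll, the hydrolase that degrades most 2-AG in brain, fell with RANKL from 3223 ± 309 to 1480 ± 126 (-1.12) and was higher in KO cells at day 1 (2884 ± 78.3, log2 difference 0.97). At day 3 Mgll read 296 ± 8.22 in WT, 343 ± 25.9 with NS398 and 245 ± 21.7 in KO cells, where KO against WT gave -0.28 (adjusted p 0.142) and KO against NS398 gave -0.49 (adjusted p 0.0352). Mgll has 3 probes, and another of them was called lower in KO against WT at day 3 (-0.42). Ddhd1, a phospholipase of the same list, was called in no comparison by its brightest probe, while its other probe gave -0.38 with RANKL and 0.46 in KO cells at day 1, both called.

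Of the other receptors that endocannabinoids or their relatives act on, Gpr18 ran opposite to Cnr2. Gpr18 encodes a G protein-coupled receptor proposed to respond to N-arachidonoyl glycine. Its arrays read 284 to 396 with M-CSF alone, 988 to 1240 in WT cells with RANKL and 319 to 366 in KO cells with RANKL. It rose with RANKL (1.66, adjusted p 1.23e-10) and was lower in KO cells (-1.70, adjusted p 3.81e-10). At day 3 it read 325 to 433 in WT cells, 151 to 170 with NS398, 155 to 183 in KO cells and 456 to 549 with PGE2. It fell in KO cells (-1.20, adjusted p 4.45e-07) and with NS398 (-1.29, adjusted p 1.82e-07), and rose with PGE2 (1.54, adjusted p 1.84e-08). The low and the high groups did not overlap at either time.

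Pparg, a nuclear receptor activated by lipids, ran in the directions of Daglb. Its arrays read 2157 to 2566 with M-CSF alone, 203 to 252 in WT cells with RANKL and 1455 to 1554 in KO cells with RANKL. In WT cells with RANKL it was not above background by the authors' detection p-value, so M-CSF alone was at least 10.9-fold higher and KO at least 6.9-fold higher (adjusted p 6.92e-17 and 1.36e-14). At day 3 Pparg rose in KO cells (0.88, adjusted p 9.14e-05) and with NS398 (0.83, adjusted p 0.000151), and fell with PGE2 (-0.96, adjusted p 2.5e-05). A second Pparg probe gave -1.03 for RANKL against M-CSF alone and 0.43 for KO against WT at day 1, and -0.06, -0.03 and -0.14 in the 3 day 3 comparisons. Trpv2, a cation channel that cannabidiol can open, did not pass with RANKL (-0.14) and was higher in KO than in WT cells at day 1 (0.57). None of the 3 receptor genes was called between KO cells with PGE2 and WT cells, or between KO cells and NS398.

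**Figure D4:**
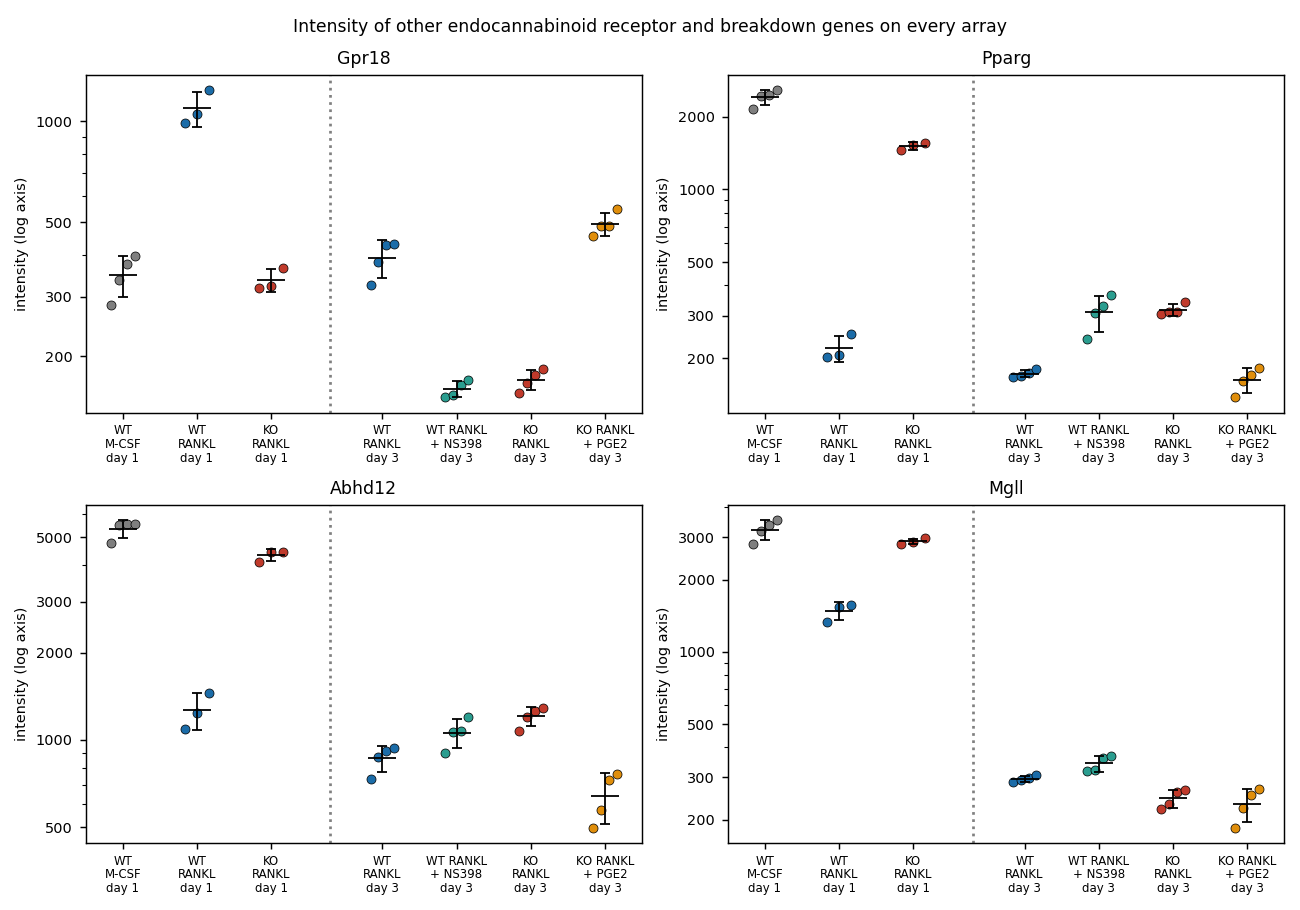
Normalised intensity (log axis) of Gpr18, Pparg, Abhd12 and Mgll on each array, by group, with the mean and SD. Gpr18 is high in WT cells with RANKL at day 1 (988 to 1240), where the other 3 genes are low.

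Among the genes of inhibitory G protein signalling, through which CB2 acts, 1 of 11 rose and 8 fell with RANKL, and 7 rose and 2 fell in KO against WT at day 1. Of named probes, 75.8% and 70.3% were called in these comparisons. At day 3, 2 rose in KO cells, 4 rose with NS398 and 3 fell with PGE2, with none in the other direction. The shares of named probes called there were 16.2%, 15.1% and 33.0%. The median log2 difference was -0.80 with RANKL and 0.48 in KO at day 1, beside -0.10 and 0.09 over named probes. Rgs1, which speeds the shut-off of these G proteins, fell with RANKL (-3.74, adjusted p 4.15e-16) and was higher in KO cells (3.65, adjusted p 3.87e-15). At day 3 it rose in KO cells (0.72) and with NS398 (2.04) and fell with PGE2 (-1.69). It was lower in KO than in NS398 cells (-1.32, adjusted p 0.000106), but its 3 probes ran from -1.32 to 0.90 in that comparison. They also ran from 1.52 to 3.65 for KO against WT at day 1, from 0.50 to 2.00 for the same comparison at day 3 and from -0.97 to 0.68 for KO with PGE2 against WT. Rgs1 and Ptgs2 both lie on chromosome 1 in RefSeq.

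Rgs16, of the same family, fell with RANKL (-1.43) and was higher in KO cells at day 1 (0.88). Rgs2 was not above background in WT cells with RANKL and was at least 2.6-fold higher with M-CSF alone. Adcy7, an adenylyl cyclase of immune cells, fell with RANKL (-0.66) and rose at day 3 in KO cells (1.22, adjusted p 0.000682) and with NS398 (0.91, adjusted p 0.00738). It fell with PGE2 (-1.69, adjusted p 1.91e-05). Its probes disagreed at day 1 for KO against WT, at -0.30 and 0.30, and at day 3 the second gave 0.22, 0.04 and -0.36, of which only the last was called. Gng10, a G protein gamma subunit, was the gene of this list that rose with RANKL (0.79), and it rose with NS398 at day 3 (0.55).

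Of 5 genes of fatty acid and endocannabinoid carriers, 1 rose and 4 fell with RANKL, beside 75.8% called among named probes. Fabp5, a carrier of anandamide in cells, fell with RANKL (-0.60) and was higher in KO cells at day 1 (0.59). Fabp3 fell with RANKL (-0.88), fell in KO against WT at day 3 (-0.75) and rose with PGE2 (1.05). Scp2, a sterol carrier, fell with RANKL (-0.66) and with PGE2 (-0.50).

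Among 14 genes of the diacylglycerol and arachidonate routes, 7 rose and 5 fell with RANKL, and 5 rose and 7 fell in KO against WT at day 1. Beside these stand 75.8% and 70.3% called among named probes. Ptges, the inducible synthase that makes PGE2 from the COX product, rose with RANKL (5.56) and was lower in KO cells (-5.38). At day 3 it fell in KO cells (-2.84) and with NS398 (-2.70), and rose with PGE2 (4.14), which left it above WT cells (1.30). Lpcat2, an acyltransferase of phospholipid remodelling, rose with RANKL (3.45) and was lower in KO cells at day 1 (-2.42). Pla2g15, a lysosomal phospholipase, ran in the directions of Daglb: it fell with RANKL (-1.68), was higher in KO cells at day 1 (1.27) and day 3 (0.67) and with NS398 (0.72), and fell with PGE2 (-0.76). Hpgds, which makes prostaglandin D2, fell with RANKL (-2.68), was higher in KO cells at day 1 (1.47) and fell with PGE2 (-1.03). Tbxas1, which makes thromboxane, fell with RANKL (-1.07) and with PGE2 (-0.61).

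Other lipid receptors moved both ways. Of 11 tested, 6 rose and 5 fell with RANKL, and 5 rose and 6 fell in KO against WT at day 1. Named probes were called at 75.8% and 70.3% in these comparisons. Lpar6, a lysophosphatidic acid receptor, had means of 8663 ± 392 with M-CSF alone, 4625 ± 146 in WT cells with RANKL and 12056 ± 862 in KO cells with RANKL. At day 3 it read 688 ± 66.8 in WT cells, 2242 ± 418 with NS398, 3061 ± 250 in KO cells and 870 ± 54.5 with PGE2. It rose at day 3 in KO cells (2.15, adjusted p 5.06e-09) and with NS398 (1.69) and fell with PGE2 (-1.81). Gpr84, a receptor for medium-chain fatty acids, rose with RANKL (1.56), was lower in KO cells at day 1 (-2.87) and with NS398 at day 3 (-1.49), and rose with PGE2 (2.73), to above WT cells (2.25). Gpr35 rose with RANKL (2.28) and was lower in KO cells at day 1 (-2.33), and Lpar1 did likewise (2.36 and -2.04). Ptger2, which encodes the PGE2 receptor EP2, fell with RANKL (-0.40), was higher in KO cells at day 1 (0.57) and day 3 (0.61, adjusted p 0.000998), and did not pass with PGE2 (-0.30).

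The genes whose group means were most like those of Daglb were found by the root mean square (RMS) difference over the 7 group means. The means were centred within each experiment on the log2 scale. The search covered 5502 genes with a named probe kept in both experiments, clone names left out. Names exist only for probes the authors' tables list, so the ranks hold within that selected set. The genes most alike were Htr2b, a serotonin receptor, at 0.207, Pparg at 0.230 and the growth factor Igf1 at 0.241. Next came the selenium transporter Selenop at 0.245 and the elongation factor Eef1a2 at 0.274. Daglb itself had an RMS size of 1.19. Htr2b read 10440 ± 917 with M-CSF alone, 821 ± 34.8 in WT cells with RANKL and 6378 ± 209 in KO cells with RANKL. The genes most like Daglb with the sign turned were the formyl peptide receptor Fpr1 (0.183), the myeloid receptor Trem1 (0.197), Sema4a (0.240), Gbp4 (0.247) and Cd274 (0.260), which encodes PD-L1.

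For Cnr2, with an RMS size of 0.934, they were the RNA-editing enzyme Apobec1 (0.199), the Toll-like receptor Tlr13 (0.235), the iron exporter Slc40a1 (0.238), Rin2 (0.243) and the transcription factor Mef2c (0.262). With the sign turned they were Nupr1 (0.165), Gpr18 (0.222), Irf1 (0.242), Irak3 (0.257) and Mefv (0.270). The RMS difference between Daglb and Cnr2 was 0.562, which ranked Cnr2 43 among the genes like Daglb and Daglb 128 among those like Cnr2. In WT cells with RANKL the centred log2 mean of Cnr2 was -1.27 at day 1 and -0.92 at day 3. With Pearson correlation as the measure, 0 of the 5 genes most like Daglb or Cnr2 were shared with these lists, and of the genes with the sign turned only Trem1, for Daglb, was.

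**Figure D5:**
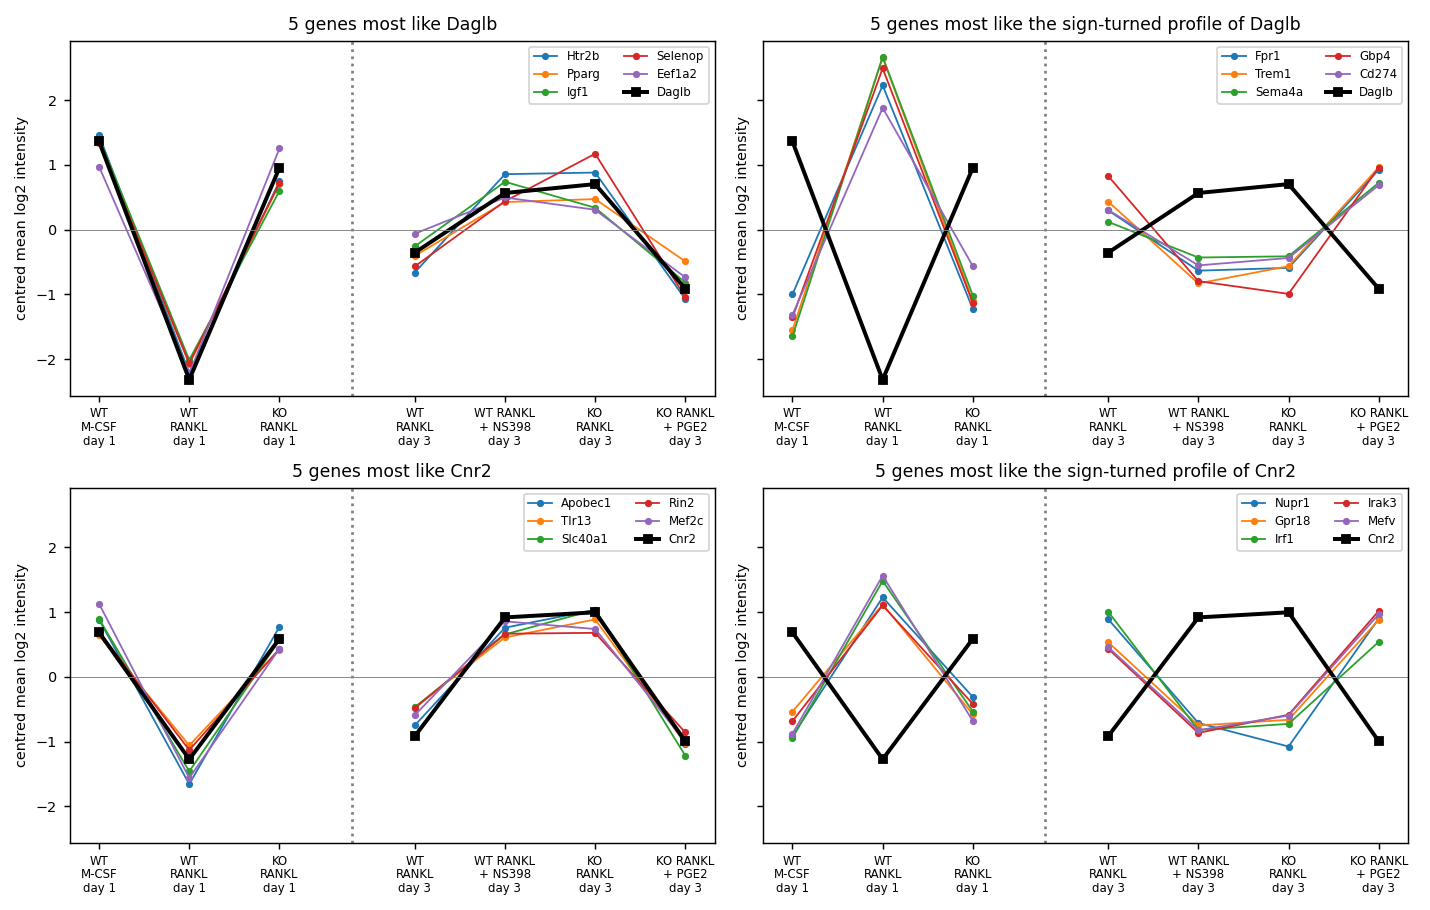
Centred log2 group means of Daglb and of Cnr2 (black) over the 7 groups, with the 5 genes most like each (left) and the 5 most like it with the sign turned (right). Both are low in WT cells with RANKL and in KO cells with PGE2 and high in the other groups, and the RMS difference from Daglb is 0.207 for Htr2b, the closest gene, and from Cnr2 0.199 for Apobec1.

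Markers of other cell types also differed between the groups. The sum of 7 of 10 macrophage markers was 146041 to 159660 with M-CSF alone. It was 128661 to 131734 in WT and 142916 to 149945 in KO cells with RANKL, so the WT arrays with RANKL lay below the others. Of single macrophage markers, 3 rose and 3 fell with RANKL, and 2 rose and 3 fell in KO against WT, beside 75.8% and 70.3% of named probes called. At day 3 the sum was 51889 to 65459 in WT cells, 44130 to 53214 with NS398, 53433 to 60569 in KO cells and 49868 to 74442 with PGE2. These markers were thus measured in every group. The sum of 8 of 10 osteoclast markers was 9782 to 11291 with M-CSF alone, 110638 to 115496 in WT cells with RANKL and 67152 to 93679 in KO cells with RANKL, and 56501 to 86737 over the day 3 groups. The summed intensity of 8 of 10 neutrophil markers was 10610 to 11316 with M-CSF alone, 82251 to 83904 in WT cells with RANKL and 41637 to 56506 in KO cells, which is the reverse of the order of Daglb and Cnr2. Most single neutrophil markers did not follow the sum and moved in the directions of Daglb and Cnr2. With RANKL 3 rose and 5 fell (median log2 difference -0.48), and in KO against WT 6 rose and 2 fell (median 0.71). Again 75.8% and 70.3% of named probes were called. At day 3 the sum was 2477 to 3659 in WT cells, 1335 to 2078 with NS398, 1265 to 1479 in KO cells and 4556 to 8648 with PGE2.

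B cells are known to carry CB2, and 2 of 12 B cell markers (Blnk and Cd22) had a named probe. Their sum was 2538 to 3800 with M-CSF alone, 1227 to 1545 in WT cells with RANKL and 2161 to 2569 in KO cells. At day 3 it was 761 to 880 in WT cells, 964 to 1119 with NS398, 850 to 1180 in KO cells and 508 to 730 with PGE2. Cd79a, Ms4a1 and Pax5 were not analysed here. The sum of 5 of 10 stromal markers was 1566 to 1645, 2326 to 2504 and 3808 to 4219 in the 3 day 1 groups in the same order. At day 3 it was 940 to 1321 in WT cells, 710 to 767 with NS398, 754 to 865 in KO cells and 1382 to 1635 with PGE2. Of the mast cell list only Hdc was named, which read 209 to 247, 1654 to 1821 and 326 to 357 at day 1. Its day 3 values were 196 to 218 in WT cells, 127 to 148 with NS398, 128 to 152 in KO cells and 170 to 191 with PGE2. The sum of 2 of 10 T and NK cell markers was 433 to 475, 614 to 694 and 471 to 490 at day 1 and 262 to 309 at day 3. The part of these markers in the differences of Daglb and Cnr2 was not tested.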

How the data were processed

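Gene expression was measured on 26 arrays. Normalised intensities were deposited by the authors as a value table. The submitters' processing notes name GenomeStudio, without a version. All arrays of an experiment shared nearly the same distribution of values, and no normalization step is recorded in the sources used here. The authors' deposited comparison tables hold, per the file headers, a group mean intensity with its SD, a detection p-value, a ratio of group means and a DiffScore. The authors computed this score in comparing each group with a reference group, per the file headers, and the tables name the probes they list. Symbols were updated through RefSeq synonyms: of 5838, 3969 were current, 1703 were updated and 166 were kept.

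The log2 intensities were fitted per experiment, over all its groups, with limma 3.58.1 (R 4.3.3) and moderated by eBayes. Probes passing a filter at the 40th percentile of intensity were kept, which left 17211 probes at day 1 and 18961 at day 3, and p-values were Benjamini-Hochberg adjusted over all of them (threshold 0.05). A group with a detection p-value over 0.05 was not above background. In gene lists the brightest probe stood for a gene. The text names the chosen probes, at most 4 genes per list and comparison by the smallest p, and the 5 genes most alike in each direction. Members and lists were chosen with earlier results of these data known, and the promoter motifs and chromosome neighbours after values were seen. The fit was first tested on simulated data. Mean correlation within groups was 0.994 to 0.995 at day 1 and 0.979 to 0.989 at day 3, and 0 arrays were identical. The number of arrays limits the precision. Alternatives tried were no filter, cyclic loess, a floor, a variance trend with robust moderation, only the groups compared, and each array left out. Scanner files were not used here.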

Additional observations from a re-analysis of the deposited data

Results flagged for a closer look

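Some arrays stood apart from the others of their group, with a gap to the nearest array large against the range of the group. The criterion was Dixon's at 95%, which chance meets in about 1 in 20 groups. The search ran over several genes and groups, so some arrays meet it by chance, and their number was not estimated. For the dimmer Daglb probe the arrays set apart were NS398 replicate 17, at 212 where the nearest array read 275, and KO replicate 8 at day 3, at 294 beside 212. The brighter Daglb probe and Cnr2 met the criterion in no group of 4 arrays. KO replicate 8 also stood low for Lpar6 (2689 beside 3146) and Ptger2 (272 beside 310). Replicate 6 of WT cells with M-CSF alone was low for Abhd12 (4776 beside 5503) and high for Gpr35 (479 beside 422). Ptpn22 was high in NS398 replicate 16r (2295 beside 1173) and in KO replicate 12r at day 3 (2621 beside 1164). Both arrays carry the unexplained r. With PGE2, Ptpn22 read 1747, 1577 and 1887 in replicates 21r, 23r and 24r and 945 in replicate 20. Untreated WT arrays, without an r, read 1111 to 1927. The part of this label was not tested. Pparg was high in KO replicate 7 at day 3 (343 beside 310.5), and Lpcat2 in KO with PGE2 replicate 24r (364 beside 313).

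The KO effect differed in direction between the experiments for Mgll, with a log2 difference of 0.97 at day 1 and -0.28 at day 3, and for Adcy7, with -0.30 at day 1 and 1.22 at day 3. A second Adcy7 probe was positive in both, at 0.30 and 0.22. The difference between the days was not tested.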

How the results depend on the processing

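Differences of the 3 probes kept their direction and their side of the threshold, or moved by less than the spread, for 172 values with 1 array left out and 115 under other settings. With 1 array left out 4 others lost a call and 4 gained one, and under other settings 1 lost, 3 gained and 1 moved. Counts of called pathway genes stayed within 1.5 times in all 60 and 40 such values. Daglb in KO against WT at day 1 was 3.21 on the log2 scale with cyclic loess. With a variance trend and robust moderation, Daglb in KO with PGE2 against WT was -0.56 with an adjusted p of 0.0663, and the dimmer probe passed for NS398 (0.48, adjusted p 0.0295) and PGE2 (-0.43, adjusted p 0.0317). With only the 2 groups compared, that probe passed for PGE2 (-0.43, adjusted p 0.049), and 95 probes were called for KO with PGE2 against WT, beside 227. Leaving out 1 array moved the dimmer probe from 0.29 to 0.55 for KO against WT at day 1, from -0.57 to -0.30 for KO against M-CSF alone, from 0.40 to 0.58 for NS398 (called without WT replicate 3 or NS398 replicate 17) and from -0.49 to -0.29 for PGE2 (called without KO replicate 11 or 12r). It moved the count for PGE2 from 1656 (without KO replicate 8) to 2742, beside 2561, and that for KO against NS398 from 88 (without NS398 replicate 18) to 160, beside 140. The cause of these changes was not tested, beyond the smaller number of arrays. With Pearson correlation 0 of the 5 genes most like each gene, signs kept, were shared. Background correction from scanner values was not run. No paired analysis was possible because groups within an experiment share no replicate numbers.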

Other observations

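Some chromosome neighbours were looked at after values were seen. Of the 5 genes on each side of Daglb in RefSeq, 4 of 10 (Kdelr2, Rac1, Fam220a and Eif2ak1) had a named probe. Their log2 differences had a size of at most 0.85, which was that of Rac1, a small GTPase of the cytoskeleton, with PGE2 (-0.85, adjusted p 0.0159). Srsf10, a splicing factor near Cnr2, rose at day 3 in KO cells (0.57) and with NS398 (0.40) and fell with PGE2 (-0.64).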
